A study of Mus musculus with 10 samples.

Results

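The genes described here are 52 mouse homeobox genes that lie outside the Hox clusters and pattern the body: 9 Pax, 6 Dlx, 7 Lhx, 6 Irx and 7 Nkx genes, with Six2, Six3, Six4, Six5, Six6, Otx1, Otx2, Emx1, Emx2, En1, En2, Gbx1, Gbx2, Msx1, Msx2, Pitx1 and Pitx3. They were chosen by name, among 20665 autosomal protein-coding genes, and not by a measured value, though earlier results of these data were known. For each gene the CpG cytosines within 1000 bp of either RefSeq end and those in the remaining span, called the body, were kept apart, and a place was measured when it held at least 3 cytosines. The samples were mouse embryos of embryonic day 7.5 from the study's experiment 2, 5 labelled control and 5 labelled arsenic. The labels give the tissue only as embryos, and the sources used here do not state strain, sex, dose or timing. DNA methylation was read by reduced representation bisulfite sequencing, in which restriction fragments rich in CpG are sequenced after bisulfite has converted unmethylated cytosines. The count table numbers its libraries 1 to 10 and ties none of them to an embryo or a group, so control and arsenic embryos could not be compared. All values below describe the 10 libraries together.

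Homeobox genes encode transcription factors that bind DNA through the homeodomain, and each family is switched on in its own region of the embryo. Pax genes carry a paired domain and act in eye, kidney, neural tube, thyroid and somite, although Pax1 and Pax9 lack a homeodomain and Pax2, Pax5 and Pax8 keep part of it. Dlx, Lhx, Irx, Nkx, Otx, Emx and Six2 to Six6 pattern the head, placodes, limbs, heart and brain. At gastrulation, many of these genes are not yet transcribed. As background, CpG-rich starts of such genes are known as targets of Polycomb repression, often lie in long stretches of low DNA methylation, and need no methylation to be silent.

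The table held 2391795 cytosines, each read at least 10 times in every library, and the summed coverage ran from 94583116 to 127102232 reads per library. Neighbouring CpGs on one read were each counted, and no molecular identifiers are described, so the intervals below cover counting error only and are too narrow. The strand of 37 of the 52 genes was given by the RefSeq promoter table, and for these the end at the start of transcription is called the start and the other the far end. For Pax3, Pax4, Dlx3, Dlx4, Dlx5, Dlx6, Lhx5, Irx1, Irx5, Irx6, Nkx2-6, Otx1, En2, Gbx1 and Pitx1 the ends are named by coordinate. Of the 52 genes, 27 had both ends measured, 21 had 1 end and 4 had none (Pax4, Pax5, Lhx4 and Otx2), and 48 had a measured body. Pax4, a regulator of pancreatic islet cells, had no measured place. The measured places held 10166 cytosines.

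A few promoter sequences show what was read. RefSeq (GRCm38.p6, the coordinates of mm10) gives 250 bases before and 50 after a transcript start, and CpGs measured on at least 1 strand are in capitals. Gbx2, which positions the midbrain-hindbrain boundary, and En1, which acts beside it and in the ventral limb, have promoters with 27 and 23 CpGs (chr1:89931127-89931426, minus strand, and chr1:120602237-120602536, plus strand). Nkx6-2 and Nkx2-1, which pattern the ventral neural tube and forebrain, have 32 and 12 (chr7:139582748-139583047 and chr12:56536859-56537158, both minus strand). Dlx1, which acts in forebrain interneurons and branchial arches, has 27 (chr2:71529195-71529494, plus strand).
Gbx2: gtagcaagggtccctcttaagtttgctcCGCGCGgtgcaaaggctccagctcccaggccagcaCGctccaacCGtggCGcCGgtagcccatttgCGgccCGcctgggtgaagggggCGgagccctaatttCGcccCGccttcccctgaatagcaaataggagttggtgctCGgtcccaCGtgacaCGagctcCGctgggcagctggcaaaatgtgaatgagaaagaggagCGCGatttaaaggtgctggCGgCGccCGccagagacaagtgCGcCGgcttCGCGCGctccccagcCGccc
En1: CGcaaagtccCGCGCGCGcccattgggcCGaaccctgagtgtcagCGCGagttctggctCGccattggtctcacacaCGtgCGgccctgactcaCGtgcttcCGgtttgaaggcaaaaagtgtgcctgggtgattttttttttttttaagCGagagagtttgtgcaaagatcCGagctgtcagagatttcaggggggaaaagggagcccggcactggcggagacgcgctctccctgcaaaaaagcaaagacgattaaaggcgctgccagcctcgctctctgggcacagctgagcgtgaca
Nkx6-2: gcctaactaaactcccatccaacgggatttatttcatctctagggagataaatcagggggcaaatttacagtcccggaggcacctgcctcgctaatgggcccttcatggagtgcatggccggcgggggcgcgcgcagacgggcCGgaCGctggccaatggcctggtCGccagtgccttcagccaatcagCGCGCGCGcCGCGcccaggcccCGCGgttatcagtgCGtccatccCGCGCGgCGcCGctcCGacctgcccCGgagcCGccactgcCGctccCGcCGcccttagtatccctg
Nkx2-1: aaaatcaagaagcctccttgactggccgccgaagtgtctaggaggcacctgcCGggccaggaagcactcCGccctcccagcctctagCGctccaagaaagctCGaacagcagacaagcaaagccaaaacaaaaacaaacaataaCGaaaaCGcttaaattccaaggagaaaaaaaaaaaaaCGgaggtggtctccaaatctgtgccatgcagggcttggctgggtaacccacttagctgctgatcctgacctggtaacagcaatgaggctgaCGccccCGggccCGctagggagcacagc
Dlx1: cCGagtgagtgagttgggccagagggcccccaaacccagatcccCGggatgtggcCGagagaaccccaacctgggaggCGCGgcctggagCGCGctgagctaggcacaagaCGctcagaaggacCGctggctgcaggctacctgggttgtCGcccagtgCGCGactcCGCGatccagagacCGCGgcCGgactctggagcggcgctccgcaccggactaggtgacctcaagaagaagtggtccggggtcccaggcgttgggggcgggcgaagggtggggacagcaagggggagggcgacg
These promoters are shown because 3 of them stood at or near 1% and the other two near 10%. In Gbx2 all 27 CpGs were measured, and the promoter stood at 0.76% (0.496% to 1.28% over the libraries, 51 cytosines). En1, with 15 CpGs measured, stood at 9.45% (5.05% to 13.05%, 28 cytosines). No library of En1 fell within the range of Gbx2, a contrast that the choice of these promoters favoured. Nkx6-2 was at 1.03% (0.623% to 1.37%, 44 cytosines) and Nkx2-1 at 11.4% (5.92% to 13.5%, 14 cytosines). Dlx1 was at 0.666% (0% to 1.48%, 31 cytosines), and its neighbour Dlx2, also low, was at 1.83% (0.763% to 2.84%). Across the 48 promoter sequences listed for 37 of the genes, the median number of CpGs was 17 and 83.3% held CCGG, the site cut by MspI, an enzyme commonly used in this assay though not named in the labels. The sequence reads the same on both strands. Of the 19948 promoter sequences of other protein-coding genes, 63.4% held it, and their median CpG number was 14.

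At their starts these genes were lowly methylated, but less completely so than protein-coding genes in general, while their bodies and far ends were much less methylated than those of other genes. The median level was 6.04% at 33 starts (library medians 5.51% to 8.40%), against 2.36% (2.34% to 2.70%) at 10507 starts of other protein-coding genes. In bodies the order was the other way round, with a median of 17.1% (15.6% to 18.0%) over 48 genes against 57.8% (55.9% to 59.8%) over 13979. At 17 far ends the median was 22.8%, with library medians of 16.3% to 22.1%, against 60.3% (58.0% to 62.1%) at 4317. In each of these comparisons, the lowest and highest library medians of the patterning genes did not overlap those of other genes. These ranges show the spread over libraries and not over genes. A summed value can lie outside the range of the library medians, because another gene then holds the middle place. The lists were described by their medians and counts, and no set test was made.

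**Figure D1:**
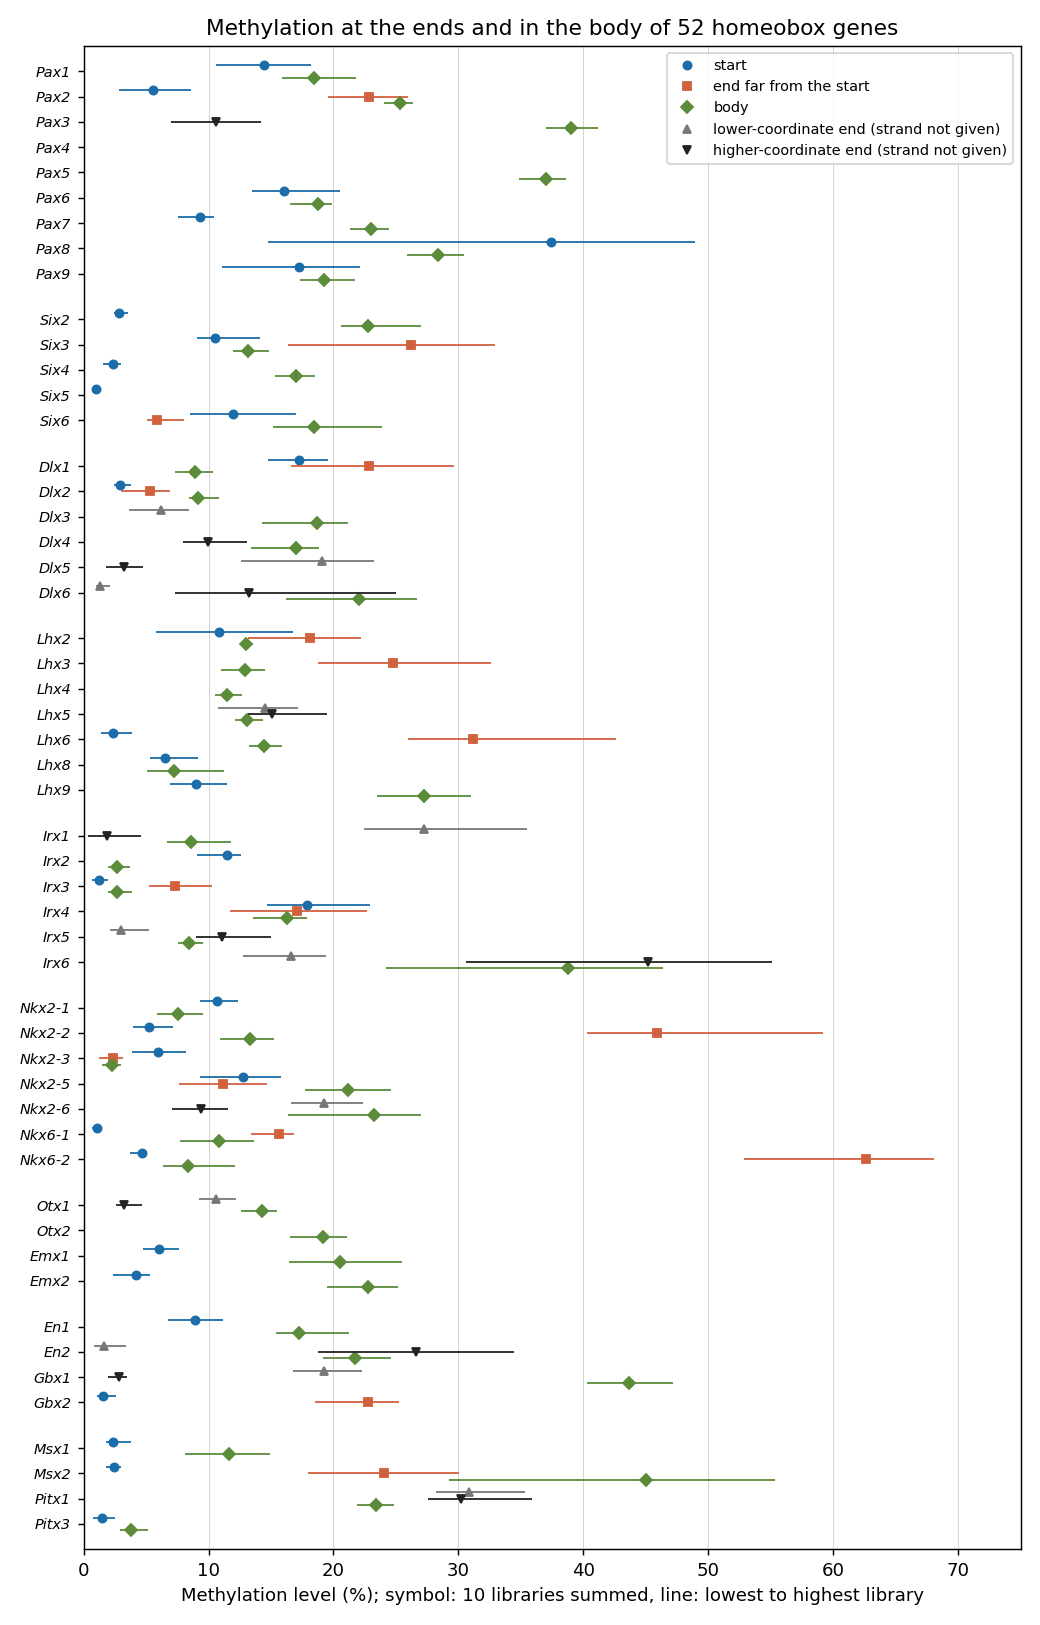
Methylation level in percent (x axis) at the start, the far end and in the body of each of the 52 genes (y axis, by family), with symbols for the 10 libraries summed and lines from the lowest to the highest library. Triangles mark ends named by coordinate where the strand was not given. Most starts lie under 20%, Nkx6-2 has the highest far end at 62.6%, and no body exceeds 45.1%.

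Counts of genes by level showed where the patterning genes lay. Under 20% lay 32 of 33 starts (97.0%), against 82.4% of the starts of other protein-coding genes. Under 5% lay 13 of 33 (39.4%), against 64.5%. Between 5 and 20% lay 19 of 33 (57.6%), against 17.9%, and none reached 50%, against 8.18%. Of the bodies, 31 of 48 (64.6%) were under 20%, against 8.53% of others, and 0 of 48 were at 50% or more, against 67.0%. Nkx2-3, Irx3, Irx2 and Pitx3 made up the 4 bodies (8.33%) under 5%, against 2.53% of others. Of the far ends, 8 of 17 (47.1%) were under 20%, against 17%, and 1, that of Nkx2-3, was under 5%, against 8.87%. Over all 75 measured ends, strand given or not, the median was 10.6%, and 60 ends (80%) were under 20%, against 62.9% of the ends of other genes.

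Single cytosines showed the same. Of 6558 cytosines in these bodies, 26.7% were under 5% methylated, 40.2% between 5 and 20%, 32.7% between 20 and 80%, and 26 (0.397%) over 80%. In the bodies of other protein-coding genes 16.2% of 969452 cytosines were over 80%. Tiles of 1000 bp were classed by their number of assayed cytosines. Those with 60 or more held 1671 of the 6558 body cytosines of the patterning genes, against 57818 of 969452 in other protein-coding genes. In both of these classes of genes the level fell from the sparsest to the densest tiles. The comparison was therefore repeated by the number of assayed cytosines in the tile around each one. In tiles of 1 to 9 cytosines the body cytosines of the patterning genes averaged 38.0% (36.2% to 39.1% over the libraries) against 60.4% (58.7% to 62.2%) in other genes. In tiles of 20 to 29 they averaged 17.9% (16.3% to 19.01%) against 51.4% (50.03% to 52.8%). In tiles of 60 or more the values were closest, 7.59% (6.61% to 8.17%) against 9.80% (9.38% to 10.3%). The library ranges did not overlap in any of the 5 density classes, but they show the spread over libraries and not over genes. The patterning genes had 28 tiles in the class of 60 or more.

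**Figure D2:**
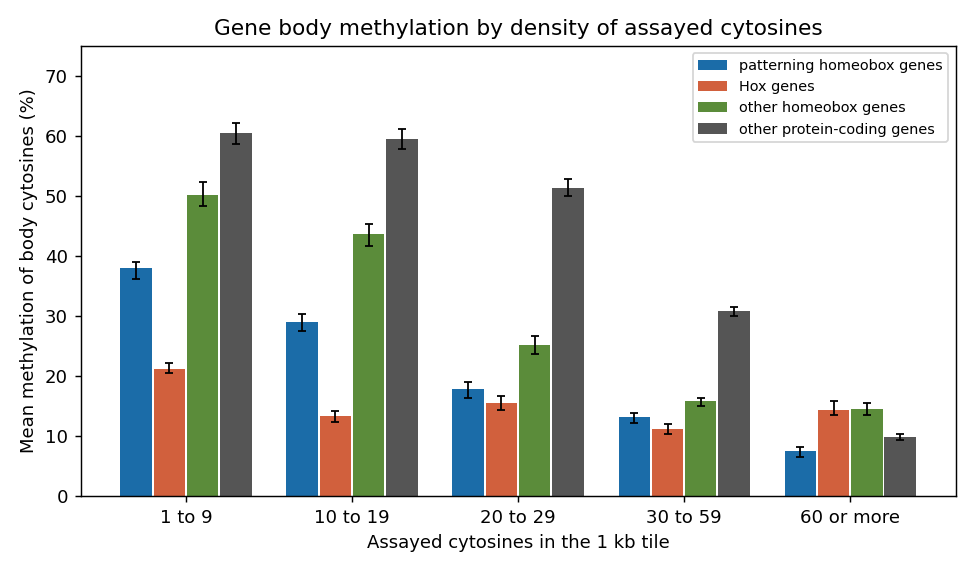
Mean methylation of body cytosines in percent (y axis) by the number of assayed cytosines in the 1 kb tile (x axis) for 4 gene classes, with bars for the 10 libraries summed and error lines from the lowest to the highest library. In tiles of 1 to 9 cytosines the patterning genes stand at 38.0% and other protein-coding genes at 60.4%, and in tiles of 60 or more at 7.59% and 9.80%.

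The starts were above those of other genes where cytosines were many. At starts with 50 or more cytosines the median was 5.56% over 20 patterning genes and 1.51% over 3991 others, and at 20 to 49 cytosines it was 10.8% over 9 and 2.17% over 3737. At starts with 3 to 19 cytosines it was 17.6% over 4 and 18.6% over 2779. Hox genes, which pattern the trunk from 4 clusters, had higher starts still, with a median of 12.3% over 21, and lower bodies, with 11.1% over 31. Among 84 other homeobox genes outside the Hox clusters, the median was 4.94% at 53 starts and 20.05% in 73 bodies. Far ends had medians of 18.3% over 15 Hox genes and 14.3% over 29 of these others, both under the 22.8% of the patterning genes. Differences between these lists were not tested.

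The distance from the start showed where the classes part. From the start to 500 bp inside, the median of the patterning genes was 5.09% over 27 genes, with library medians of 2.81% to 5.51%. It was 1.25% in other genes and 2.59% in other homeobox genes. From 500 to 1000 bp inside, the patterning genes were at 4.54% against 2.98% in other genes. Up to 500 bp outside the start they were at 2.45% over 19 genes, against 1.51%. From 500 to 1000 bp outside they were slightly below other genes, at 9.17% over 10 against 10.9%. From 2000 to 5000 bp inside, their median was 16.2% over 31 genes against 55.2%, and from 5000 to 10000 bp 15.0% over 19 against 62.0%. Outside the gene the low levels went on as well, with 14.6% over 24 genes at 2000 to 5000 bp and 22.9% over 23 genes at 5000 to 10000 bp, against 54.0% and 54.4%. At the same distances the medians were 13.0% and 11.5% in Hox genes and 18.5% and 24.5% in other homeobox genes. Low flanks were thus not particular to the patterning genes. Body sequence beyond 5000 bp of both ends was measured in 18 patterning genes. Their median was 25.9%, from Lhx4 at 11.2% to Pax8 at 46.9%, against 62.4% in 9830 other genes.

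**Figure D3:**
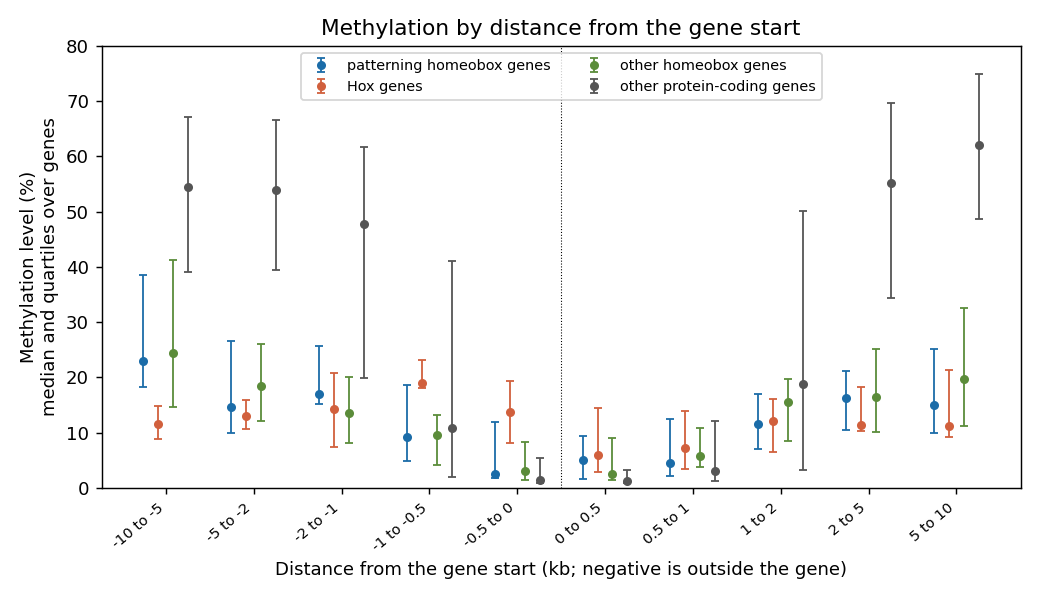
Median methylation in percent with quartiles over genes (y axis) by distance from the gene start in kb (x axis, negative outside the gene) for the genes with a given strand. Patterning genes stay at 16.2% from 2 to 5 kb inside, where other protein-coding genes reach 55.2%.

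Where the start is placed matters for these genes. The RefSeq boundary is that of the longest gene model, and 23 of the 48 listed transcript starts (47.9%) lay over 500 bp inside it, against 24.2% in other protein-coding genes. Around the listed starts (1000 bp on either side) the median was 5.44% over 44 windows (library medians 4.58% to 5.43%), against 2.41% over 13308 in other genes, and within the 300 bp promoters it was 1.95% over 29 against 1.22% over 8069. Under 20% lay 39 of these 44 windows (88.6%), against 82.2% in other genes, and under 5% lay 21 (47.7%), against 63.9%. The counts at the boundaries thus differed more from those of other genes under 20% than the counts at listed starts. In Dlx1 the boundary window was at 17.2% and the window of the same size around the listed start, 1332 bp inside, at 6.52% (5.36% to 8.06%). The 300 bp promoter printed above lies within the latter. Irx2, a regulator of ventricle and limb patterning, was at 11.4% (9.05% to 12.6%, 43 cytosines) at the boundary and at 0.900% (0.566% to 1.33%, 118 cytosines) around its listed start 4390 bp inside.

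Within a gene the far end was above the start in 12 of 16 genes with both measured, in every library of those 12, against 83.3% of other genes (76.3% in every library). The body was above the start in 25 of 31 genes (80.6%), and in every library in 18 (58.1%), against 92.6% and 88.5% of other genes. The median difference between body and start was 6.32 points, against 54.1 points in other protein-coding genes. The far end was below the start in Six6, Irx4, Nkx2-3 and Nkx2-5. In Irx4 this turned with the place of the start: around its listed start, 908 bp inside, the level was 6.58% (5.16% to 7.93%, 32 cytosines), below every library of its far end.

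The Nkx2 and Nkx6 genes, which specify ventral neural, heart and gut cell types, held the largest differences between start and far end. Nkx6-1, which acts in motor neuron progenitors and pancreatic beta cells (chromosome 5, 101659184 to 101664711), had a start level of 1.07% (lowest library 0.652%, median 1.01%, highest 1.497%) over 117 cytosines and 40971 reads. The lowest, median and highest library are given in this order in the brackets that follow. No library was above 1.497% there, and no cytosine reached 20%. Its far end was at 15.6% and its body at 10.9%. Nkx6-2, its paralog on chromosome 7 (139579376 to 139582797), was at 4.65% (3.72%, 4.69% and 4.92%) over 103 cytosines at the start and 8.32% (6.33%, 7.67% and 12.1%) over 54 in the body. Its far end was at 62.6% (52.9%, 62.3% and 68.1%) over 15 cytosines and 5554 reads, with 64.7% of these reads methylated (Wilson 95% interval 63.4% to 65.9%). Every library of the far end was above every library of the start, by 58.0 points in the summed value, the largest such difference among the 16 genes. The far window also holds an end of Inpp5a, a neighbouring gene for an inositol phosphatase.

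Nkx2-2, needed for ventral interneurons and pancreatic endocrine cells (chromosome 2, 147176485 to 147195434), showed the next largest difference. Its start was at 5.21% (3.99%, 5.17% and 7.17%) over 88 cytosines, its body at 13.3% (10.9%, 13.3% and 15.3%) over 389, and its far end at 45.9% (40.3%, 45.2% and 59.2%) over 8. The libraries of the far end and the start did not overlap. Around its listed start, 9032 bp inside the boundary, the level was 14.3% (9.03% to 17.02%), also below every library of the far end. Nkx2-5, a heart regulator (chromosome 17, 26838664 to 26844988), had the highest start of the family, at 12.7% (9.32%, 13.2% and 15.8%) over 54 cytosines, with a far end of 11.1% (7.64%, 11.2% and 14.7%) and a body of 21.2% (17.7%, 20.7% and 24.6%). Its start and far end overlapped over the libraries, and around its listed start, 3423 bp inside, it was at 26.2% (21.7% to 30.9%). Nkx2-3, a regulator of spleen and gut vessels (chromosome 19, 43612325 to 43615892), was low throughout: 5.91% (3.90%, 6.08% and 8.19%) at the start, 2.31% at the far end, and 2.25% (1.43%, 2.12% and 2.99%) in the body, the lowest body of the 48. Nkx2-1 was at 10.6% (9.28%, 10.4% and 12.3%) at the start and 7.59% in the body. Nkx2-6, of the pharyngeal endoderm, stood at 19.2% at the lower-coordinate and 9.40% at the higher-coordinate end, with a body of 23.2%.

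**Figure D4:**
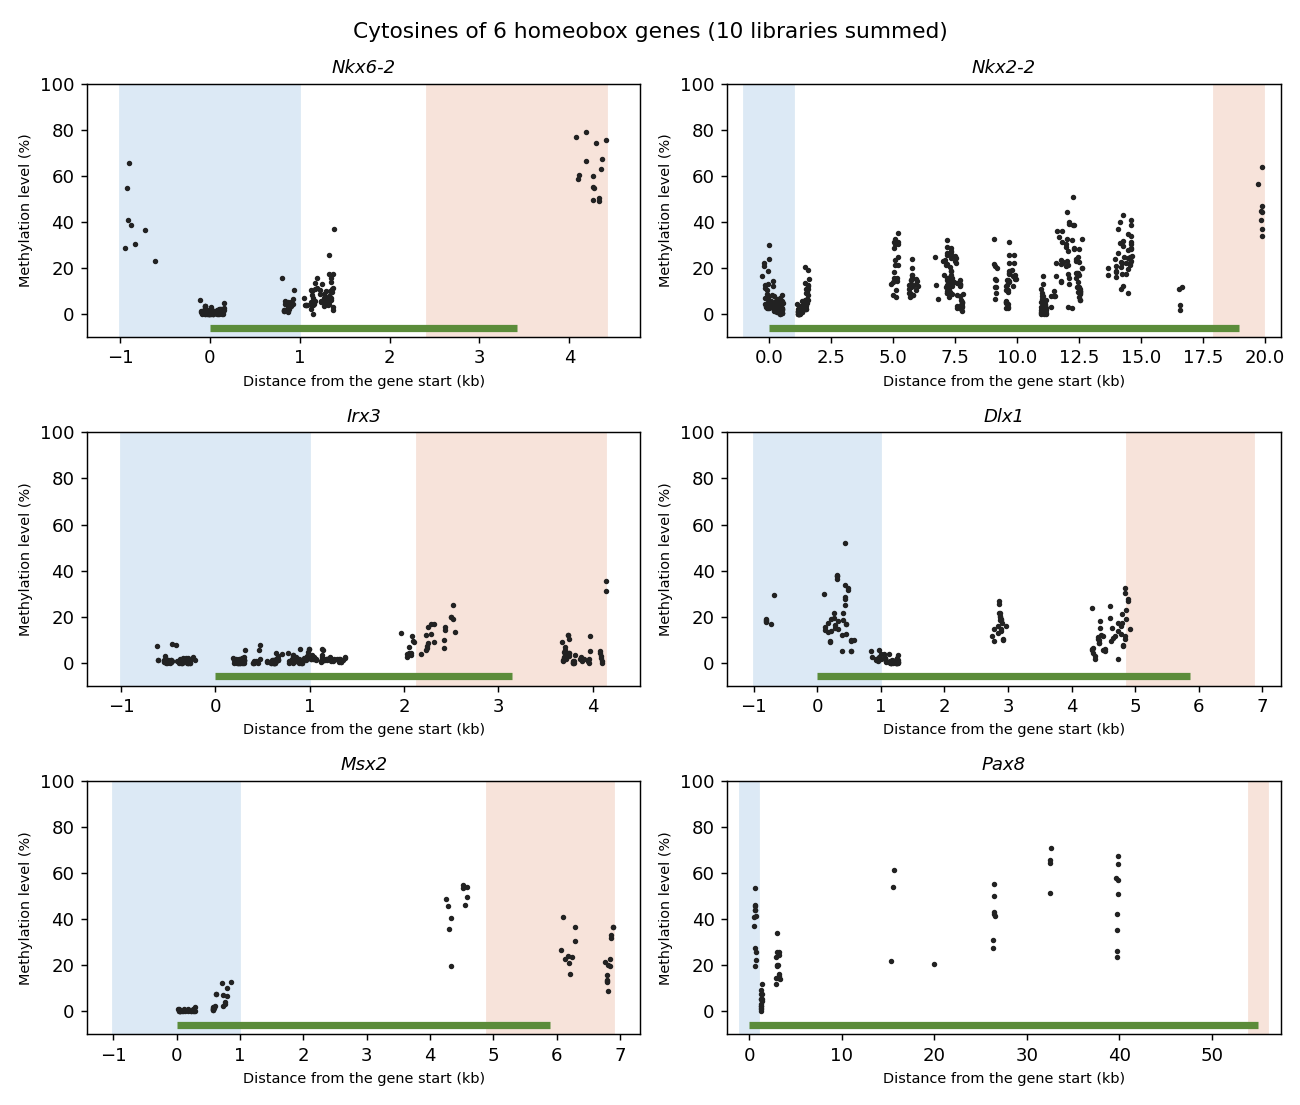
Methylation in percent (y axis) of each measured cytosine, 10 libraries summed, by distance from the gene start in kb (x axis) in 6 genes, with the start window shaded blue, the far-end window orange and the gene span as a green bar. In the start window of Nkx6-2, 8 of 103 cytosines are at 20% or more, up to 65.6%, and those at its far end lie from 48.9% to 79.1%. In Irx3 the cytosines reach 8.26% in the start window and 12.7% in the body. At its far end 3 of 62 are at 20% or more, up to 35.4%.

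The Pax genes had the highest family median in bodies, with 24.2% over 8, and in the boundary windows of starts, with 15.2% over 6 (library medians 12.3% to 17.5%). Around listed starts their median was 10.2% over 9 windows, next to 10.5% over 4 in Otx and Emx. Pax spans are long, up to 185947 bp in Pax5, so their bodies hold more sequence far from the ends. From 5000 to 10000 bp inside the start, Pax6, Pax2, Pax5, Pax9, Pax7 and Pax1 were at 9.27%, 10.4%, 12.3%, 14.8%, 18.0% and 26.7%. The median of the patterning genes there was 15.0% over 19. Whether Pax bodies differ from others at equal distance was not tested. Pax8, a regulator of thyroid and kidney (chromosome 2, 24420551 to 24475599), was the single boundary start at 20% or more, at 37.4% (14.7%, 38.1% and 48.9%) over 12 cytosines and 3719 reads. These libraries were spread over 34.2 points, the widest range of any start, and none of its 7 promoter CpGs was measured. All 12 of these Pax8 cytosines lay 500 to 1000 bp inside the gene. From 1000 to 2000 bp inside, Pax8 was at 4.89% over 14 cytosines. Around listed starts, Pax6, Lhx9, Nkx2-5 and Otx2 also had a window over 20%. The body of Pax8 was at 28.4% (25.9%, 28.0% and 30.4%). Pax9 and Pax1, both of the sclerotome that forms the vertebrae, overlapped over the libraries, at 17.2% (11.1%, 17.8% and 22.1%) and 14.4% (10.6%, 14.0% and 18.2%) at the start and 19.2% and 18.4% in the body. Around its listed start, 3778 bp inside, Pax9 was at 5.35% (1.82% to 16.7%), over 5 cytosines. Pax6, the eye regulator (chromosome 2, 105668896 to 105698410), was at 16.1% (13.5%, 14.8% and 20.6%) at the start and 18.8% (16.5%, 19.1% and 19.9%) in the body.

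Pax2, of kidney and optic stalk (chromosome 19, 44746601 to 44838269), had the lowest start of the family, at 5.53% (2.81%, 5.74% and 8.58%) over 26 cytosines, with 22.9% (19.5%, 22.4% and 26.0%) at the far end and 25.4% in the body. The far end and the start did not overlap over the libraries. Pax7, of muscle stem cells and dorsal neural tube, was at 9.31% at the start and 23.0% in the body. Among the 5 highest bodies of all members were Pax3, a neural crest and somite regulator, at 39.0% (37.0%, 38.9% and 41.2%) over 77 cytosines, and Pax5, a B cell and midbrain factor, at 37.0% (34.9%, 37.5% and 38.6%) over 482. Both lay under the 57.8% median of other bodies in every library. The measured end of Pax3, at its higher coordinate, was at 10.6%.

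The Irx genes, which form a pair of clusters and act in heart, limb and neural patterning, had the lowest bodies of the families, with a median of 8.51% over 6. Their spans are short, from 3144 bp in Irx3 to 10034 bp in Irx4, so these bodies lie close to the ends. The Irx start median was 11.4% over 3 in the boundary windows and 1.24% over 3 around listed starts. Irx3 (chromosome 8, 91798511 to 91801654) was at 1.24% (0.703%, 1.27% and 1.97%) over 159 cytosines at the start, 2.63% (1.96%, 2.66% and 3.85%) over 54 in the body and 7.35% (5.24%, 6.80% and 10.3%) over 62 at the far end. The far end exceeded the start in every library, and its window also holds an end of Gm39222, a neighbouring gene. Irx2 on chromosome 13 (72624430 to 72634196) was at 2.68% (1.94%, 2.64% and 3.73%) over 219 body cytosines. The bodies of Irx1 and Irx5 were at 8.59% and 8.44%, and Irx5 had ends of 3.00% (lower coordinate) and 11.1% (higher coordinate). Irx4, of the heart ventricle, was nearly level when the boundary was taken as its start, at 17.9% (14.6%, 17.7% and 22.9%) over 9 start cytosines, 17.1% (11.7%, 17.1% and 22.6%) at the far end and 16.3% in the body. Its listed start was lower, at the 6.58% given above.

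The ends of some Irx genes without a given strand differed widely. Irx1 stood at 27.3% (22.4%, 27.1% and 35.5%) at the lower-coordinate and 1.84% (0.333%, 1.78% and 4.598%) at the higher-coordinate end, with no overlap over the libraries. Irx6 was the exception in the family, at 38.8% (24.2%, 39.5% and 46.4%) over 23 body cytosines, 16.6% at the lower and 45.1% (30.6%, 44.1% and 55.1%) at the higher end. Its cluster neighbours Irx3 and Irx5 lie on the same chromosome, 8.

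Six2 to Six6, whose products act in eye, ear and muscle, had low starts, with a median of 2.79% over 5, which was 5.05% in windows of 500 bp. Six5 (chromosome 7, 19094544 to 19098549) had the lowest start of all members, at 0.970% (0.832%, 0.969% and 1.27%) over 84 cytosines, in a window that it shares with an end of Dmpk, a muscle kinase gene. Six2 and Six4, of kidney progenitors and muscle, were at 2.79% (2.42%, 2.83% and 3.56%) and 2.37% (1.54%, 2.44% and 3.01%). In the boundary windows, the forebrain and eye genes Six6 and Six3 were higher, at 11.9% (8.55%, 11.9% and 17%) over 30 cytosines and 10.5% (9.05%, 10.6% and 14.1%) over 52, and their libraries overlapped neither Six2, Six4 nor Six5. Around its listed start, 7226 bp inside, Six3 was at 3.57% (2.58% to 4.399%), which overlapped Six2. Bodies of the 4 measured genes ran from 13.1% in Six3 to 22.8% in Six2.

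The Dlx genes lie in convergent pairs and act in forebrain, jaws and limbs. Dlx2 and Dlx1, neighbours on chromosome 2 (71543408 to 71546754 and 71528113 to 71533981), had like bodies, at 9.19% (8.45%, 8.91% and 10.8%) and 8.88% (7.33%, 8.89% and 10.4%). Their start windows differed, at 2.87% (2.41%, 2.84% and 3.77%) over 122 cytosines in Dlx2 and 17.2% (14.7%, 16.9% and 19.6%) over 53 in Dlx1, where the window lies outside the listed start. Dlx5 stood at 19.1% (12.6%, 19.3% and 23.2%) at the lower-coordinate and 3.26% (1.83%, 3.37% and 4.76%) at the higher-coordinate end, and Dlx6, its neighbour on chromosome 6, at 1.34% and 13.3%, with a body of 22.0%. In Dlx5 the ends did not overlap over the libraries. Dlx3 and Dlx4, active in skin and placenta among other sites, were at 6.19% and 9.97% at their measured ends and 18.7% and 17% in the body.

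The Lhx genes, LIM-homeobox regulators of brain, limb and gonad, had a median of 7.77% at 4 starts (4.96% over 9 windows around listed starts) and 13.0% in 7 bodies. Lhx6, of cortical interneurons (chromosome 2, 36081950 to 36105992), was at 2.38% (1.35%, 2.20% and 3.84%) over 11 start cytosines, 14.5% in the body and 31.2% (26.0%, 29.9% and 42.6%) over 13 at the far end, without overlap between the ends. Lhx2, of eye and cortex, was at 10.8% (5.77%, 10.3% and 16.7%) at the start and 13.0% (12.51%, 12.7% and 13.6%) over 415 body cytosines. Lhx8, of oocytes and basal forebrain, was at 6.53% (5.33%, 6.11% and 9.14%) at the start and 7.21% (5.11%, 6.52% and 11.2%) in the body, which overlapped. Lhx4, a pituitary regulator measured in the body alone, stood at 11.5% over 393 cytosines. Lhx9, of the gonad, was at 9.01% in the boundary window and 26.7% (20.1% to 37.4%) around its listed start 6395 bp inside, and had the highest body of the family at 27.2%, and Lhx5 had ends of 14.5% and 15.1% and a body of 13.1%. Lhx3 was at 24.8% over 4 far-end cytosines and 12.9% in the body.

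The other families were small. Emx2 and Emx1, of the cerebral cortex, had starts of 4.19% (2.36%, 4.91% and 5.31%) and 6.04% (4.74%, 6.22% and 7.61%) and bodies of 22.8% and 20.6%, and the bodies lay above the starts in every library. Otx1, of forebrain and sense organs, was at 10.6% and 3.23% at its lower and higher ends and 14.3% in the body. Otx2, which is expressed in the early epiblast and anterior neurectoderm, was measured in the body alone, at 19.2% (16.6%, 19.8% and 21.1%) over 70 cytosines.

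Gbx2 (chromosome 1, 89927962 to 89931176) was at 1.54% (1.05%, 1.55% and 2.56%) over 195 start cytosines and 22.8% (18.6%, 23.0% and 25.2%) over 42 at the far end, without overlap. En1 was at 8.92% (6.74%, 8.98% and 11.1%) at the start and 17.2% in the body. En2, its cerebellar paralog, was at 1.60% and 26.6% at its lower and higher ends and 21.7% in the body. Gbx1 had ends of 19.2% and 2.83% and a body of 43.7% (40.3%, 44.0% and 47.1%) over 47 cytosines, higher than all other bodies except that of Msx2.

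Msx2, of limb and skull (chromosome 13, 53466881 to 53472780), had a start of 2.40% (1.81%, 2.30% and 2.98%) over 38 cytosines. Its far end was at 24.1% (18.0%, 22.3% and 30.1%) and its body at 45.1% (29.2%, 46.6% and 55.3%) over 10 cytosines and 2460 reads, with neither overlapping the start. Msx1, its paralog in teeth and limb, was at 2.38% (1.78%, 2.29% and 3.797%) at the start and 11.6% in the body. Pitx3, of lens and dopamine neurons (chromosome 19, 46135281 to 46148325), was low at 1.51% (0.736%, 1.46% and 2.50%) at the start and 3.803% (2.93%, 3.85% and 5.18%) in the body. Pitx1, which specifies the hindlimb, was instead at 30.9% (28.2%, 30.1% and 35.3%) and 30.2% (27.5%, 29.9% and 35.9%) at its lower and higher ends and 23.4% in the body. Which of these ends is the start of Pitx1 was not given, and the lower window also holds an end of Catsper3, a neighbouring gene. Every library of Pitx1 was above every library of Pitx3.

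In points, the spread between libraries was smallest at starts and widest at far ends. The median range from the lowest to the highest library was 3.19 points at starts, 9.02 at far ends and 4.39 in bodies, and the far ends hold fewer cytosines. The median start level was highest in library 6, at 8.40%, and lowest in library 7, at 5.51%. In bodies the median was highest in library 8, at 18.0%, and lowest in library 7, at 15.6%. Both groups are mixed in these libraries. In 15 of 123 measured places (12.2%) 1 library stood apart from the rest by Dixon's ratio, against 9.43% of 32646 places of other protein-coding genes.

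**Figure D5:**
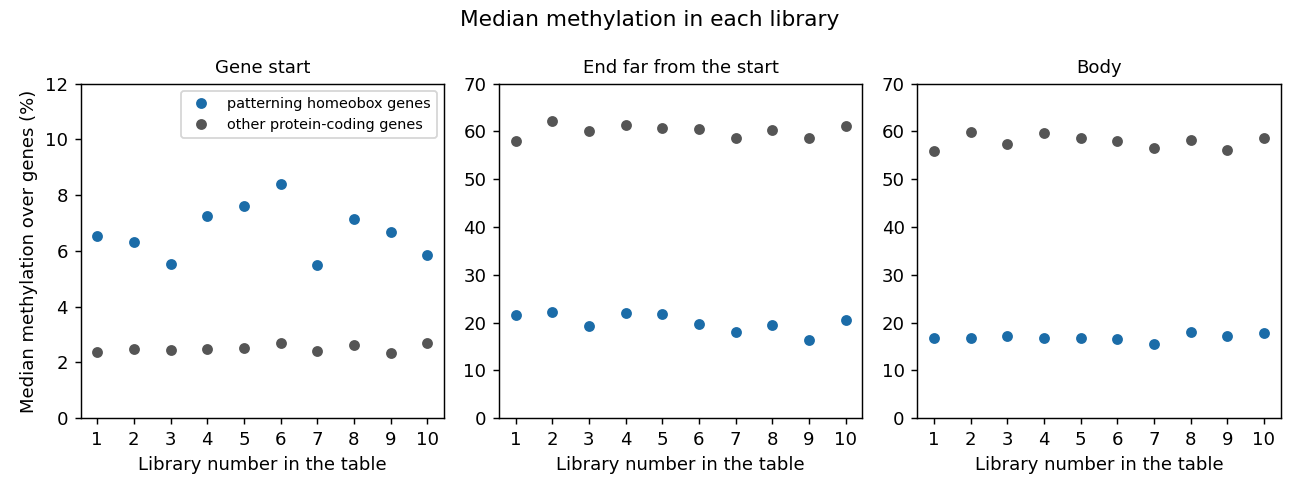
Median methylation over genes in percent (y axis) in each of the 10 libraries (x axis, the table's own numbers) at starts, far ends and in bodies, for patterning homeobox genes and other protein-coding genes. The patterning genes lie above the others at starts in every library and below them at far ends and in bodies; the start panel has its own scale, to 12%.

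Whether single cytosines differed between the libraries was tested by chi-square (homogeneity) for every autosomal cytosine with a summed level of 5 to 95%, with Benjamini-Hochberg adjustment over all of them. It called 25.4% of 1755343 cytosines at an adjusted p under 0.05, and 2051 of 6468 (31.7%) in the patterning genes. Among cytosines of 5 to 20%, the shares were 34.3% in these genes and 30.5% in all. By family the share ran from 29.1% in Pax to 41.7% in En and Gbx, and whether families differ was not tested. With the counts halved, as if each fragment had been counted in both of its reads, 8 of the 6468 (0.124%) were called, against 0.0867% of all. Among cytosines of 5 to 20% the order turned, with 0.211% in these genes and 0.369% in all. The family shares then ran from 0%, as in En and Gbx with 0 of 300, to 0.426% in Dlx. The test sets libraries against each other and is not a test of arsenic.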

How the data were processed

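Reduced representation bisulfite libraries of 10 mouse embryos (5 labelled control, 5 arsenic) were measured. Per the labels' protocols, DNA of each embryo was column-purified, and a NEBNext Ultra II kit served for library preparation. Per the submitters' processing notes, Trim Galore, Bismark, methylKit and mm10 were used; the sources used here state no version, setting, deduplication or treatment of overlapping mates. The deposited values are raw read counts per cytosine and strand, per the file headers: coverage, methylated and unmethylated counts. It was checked that the last 2 sum to the coverage and that no coverage is below 10, so thinly read cytosines are left out. Median coverage was 30 to 42 reads per library.

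The 30 per-sample columns carry library numbers that match no label, and the planned exact permutation test of arsenic against control was therefore not run. Whether the embryos or libraries are independent beyond the labels is not given.

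Methylated reads were divided by coverage at each cytosine and averaged over a place, in each library and with the counts of the 10 libraries summed first. Genes came from RefSeq (GRCm38.p6), and the strand from its promoter table; all 151372 cytosines that fall in the promoter sequences of coding genes lay on the base their strand implies. Exons and introns were not used here. Gene classes were described by counts and medians, without tests. The members, families and lists were chosen with earlier results of these data known; 84 of 85 listed other homeobox genes were found by symbol. Named with full values were the lowest and highest start of each family and the 5 most extreme starts, end differences, library ranges and bodies; other members were added so that each is accounted for. The chi-square test was tested on simulated data. Alternatives were other windows, coverage and cytosine minimums, read-weighted levels and leaving out each library. Python 3.11.15, numpy 2.4.6, pandas 2.3.3 and scipy 1.17.1 were used.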

Additional observations from a re-analysis of the deposited data

Results flagged for a closer look

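In 15 of 123 measured places of the patterning genes, 1 library stood apart from the other 9: its gap to the nearest library as a share of the range exceeded Dixon's 95% critical value. This is 12.2% of the places, against 9.43% of 32646 places of other protein-coding genes. Chance flags about 1 in 20, and the libraries mix control and arsenic embryos. No cause was tested.

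On the low side stood Pax8 at the start, with 14.7% in library 6 where the nearest library had 31.7% (12 cytosines), Irx6 in the body, with 24.2% in library 2 against 36.8% (23 cytosines), Dlx3 in the body, with 14.3% in library 2 against 17.6%, and Pax6 in the body, with 16.5% in library 7 against 18.1%.

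On the high side at starts stood Six3, with 14.1% in library 9 against 11.1%, Dlx2, with 3.77% in library 6 against 3.04%, Irx4, with 22.9% in library 8 against 19.03% (9 cytosines), and Msx1, with 3.797% in library 6 against 2.82%. At far ends stood Lhx6, with 42.6% in library 10 against 34.6% (13 cytosines), and Nkx2-2, with 59.2% in library 5 against 47.8% (8 cytosines). At ends named by coordinate stood Dlx6 at the lower, with 2.09% in library 5 against 1.504%, Irx5 at the lower, with 5.24% in library 1 against 3.22%, Irx5 at the higher, with 15.0% in library 10 against 11.5%, and Otx1 at the higher, with 4.64% in library 8 against 3.45%. In bodies stood Six2, with 27.0% in library 5 against 23.8%.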

How the results depend on the processing

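No paired analysis was possible because the table's library numbers match no sample label; the planned group comparison and its alternatives were not run for the same reason. Leaving out each library in turn gave medians of 5.91% to 6.15% at starts, 22.2% to 22.9% at far ends and 16.9% to 17.5% in bodies, and 1812 to 1882 called cytosines. Shifts are judged against the SD over the libraries, and the cause of a larger one was not tested. The start median moved to 5.07% in windows of 500 bp and 9.01% in windows of 2000 bp. The far-end median moved to 20.1% with a coverage minimum of 20, 16.3% with at least 10 cytosines and 17.3% in windows of 500 bp. The body median moved to 18.6% when weighted by reads and 18.4% without 2000 bp at either end; it was 25.9% beyond 5000 bp of both ends, an alternative chosen after seeing the data, as was the window around listed transcript starts (median 5.44%). With a threshold of 10% in place of 20%, 21 of 33 starts were counted. With counts halved, 8 cytosines were called.

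In windows of 500 bp the family medians at starts moved to 13.5% (Pax), 5.05% (Six2 to Six6), 11.97% (Dlx), 5.09% (Lhx), 5.45% (Irx), 3.90% (Nkx), 3.29% (Otx and Emx), 7.71% (En and Gbx) and 1.51% (Msx and Pitx). Weighted by reads they moved to 13.2% (Pax), 2.35% (Six2 to Six6), 9.27% (Irx) and 6.41% (En and Gbx). With a coverage minimum of 20 they moved to 12.1% (Pax), 9.24% (Dlx), 5.54% (Irx), 6.20% (En and Gbx) and 1.83% (Msx and Pitx). Around listed transcript starts they moved to 10.2% (Pax), 2.19% (Six2 to Six6), 4.70% (Dlx), 4.96% (Lhx), 1.24% (Irx), 8.28% (Nkx) and 10.5% (Otx and Emx). Pax was highest except around listed starts and the order below it changed. Of the values of single named genes and of all ends together, more than the spread over libraries was the move in 23 with windows of 500 bp (14 within it), 21 with 2000 bp (25), 30 with a coverage minimum of 20 (39), 25 when weighted by reads (48), 8 without 2000 bp at either end of the body (12), 7 without other gene ends (20) and 1 with at least 10 cytosines (68). All 730 from leaving out a library stayed within it. This was all but fixed in advance, because leaving out 1 library moves a summed value far less than that spread.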

Other observations

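Some members have more than 1 transcript start in the RefSeq promoter table. Lhx2 was at 10.8% (5.77% to 16.7% over the libraries) within 1000 bp of the outer start and 4.08% (3.21% to 5.53%) around one 12037 bp inside the boundary. Pax2 was at 5.53% around the outer start, 6.72% (5.06% to 7.94%) at 9151 bp inside and 4.05% (3.28% to 5.10%) at 10305 bp inside, and these ranges overlapped. Pax6 was higher around its inner start, 13567 bp inside, at 27.3% (21.7% to 31.5%) against 16.1% (13.5% to 20.6%) at the outer one, without overlap. Otx2, without a measured gene end, was at 15.0% (10.5% to 17.1%) around the start at 2535 bp and 23.1% (18.99% to 26.7%) around that at 4910 bp.

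Lhx4 and Lhx3, with no measured gene start at the boundary, were at 3.13% (2.70% to 3.84%) around the listed start 9699 bp inside and 15.6% (10.8% to 19.6%) around that 1674 bp inside.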
